A study of Homo sapiens with 6 samples.

Results

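The signal recognition particle (SRP), its receptor and the SEC61 translocon were followed as 10 genes: SRPR, SRPRB, SRP9, SRP14, SRP19, SRP54, SRP68, SRP72, SEC61A1 and SEC61B. These were 10 of the 57820 genes in the deposited tables of total RNA-seq. The group was chosen on measured values, because SRPR was lower in CTCF-dRBR than in CTCF-WT in these same libraries. The difference of SRPR is therefore given as a description without a test.

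The SRP is a particle of RNA and protein that binds the signal sequence of a secretory or membrane protein as it leaves the ribosome. It slows translation and docks with its receptor on the endoplasmic reticulum (ER), and the nascent chain is then handed to the SEC61 channel, which passes it across or into the membrane. In B-lineage cells this route carries the receptor chains and other surface proteins to the membrane, and immunoglobulin in cells that secrete it.

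The libraries came from SEM, a human B-cell acute lymphoblastic leukemia line, with 3 libraries of CTCF-WT and 3 of CTCF-dRBR. In both groups the endogenous CTCF was fused to miniAID-mClover3 and the cells carried OsTIR1, so that 5-Ph-IAA, given for 24 h in all, led to degradation of the tagged protein. After the first 6 h, doxycycline at 1 µg/mL was added for the remaining 18 h to induce an HA-tagged CTCF, either wild type or lacking the RNA-binding region (dRBR) and driven by TRE3G. The labels name the TRE3G-HA-CTCF-dRBR transgene for CTCF-dRBR but no transgene for CTCF-WT, whose induced wild-type CTCF is stated in the methods only. The comparison is of cells with and without the RNA-binding region of CTCF. The methods describe a separately transduced line for each form of CTCF. An effect of the deletion therefore cannot be told apart from other differences between the lines. Nothing states that the libraries of a group came from separate cultures, so p-values measure the spread between these libraries, which may be technical.

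Total expected counts (reads per gene as estimated by RSEM) ranged from 30034505 to 53166735 per library. Values called CPM here are read counts relative to library size after TMM normalization, which rescales the library sizes. The exceptions are the summed levels of cell type markers and the filter on low values, which used library size alone. CTCF itself, whose RNA includes both the endogenous and the induced transcripts, ranged over 209.9 to 248.6 CPM with wild-type CTCF and 252.1 to 272.8 CPM with dRBR, so its RNA checks neither the degradation nor the deletion. Of 8 B-ALL marker genes 7 passed the filter on low values, and DNTT, at 2 to 15 counts per library, did not. The summed level of all 8 was 904.1 to 995.0 CPM in CTCF-WT and 606.3 to 1044 CPM in CTCF-dRBR (scaled by library size alone). The T cell markers together stayed at or below 0.666 CPM and the erythroid markers at or below 0.0999 CPM in every library, and the monocyte and granulocyte markers together at 5.77 to 6.47 CPM, with CD3D, HBA1 and ELANE at 0 throughout. The library CTCF-dRBR replicate 1 stood apart, with rank correlations of 0.913 to 0.968 to the other libraries over the genes tested, whereas all other pairs of libraries were at 0.971 or above. It was also the library with the fewest counts.

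All 10 genes passed the filter of at least 1 CPM in any library. None of them passed the threshold of 0.05 for the false discovery rate (FDR) in limma-voom, where the background was 0.0% (0 of 14044 genes tested). At an unadjusted p under 0.05, limma-voom held 3569 genes and edgeR's quasi-likelihood test, which also called 0 genes, held 3462. Apart from SRPR, which chose the group and had separate groups too, SRPRB and SRP68, 2 of 9 genes, had all CTCF-dRBR libraries below the lowest CTCF-WT library. This is near the 17.5% of all genes tested for which that held. In 0 of the 9 were all CTCF-dRBR libraries above, against 20.0% of all genes tested. The median log2 fold change (CTCF-dRBR minus CTCF-WT) was -0.06 over the 9 genes other than SRPR and -0.01 over all genes tested.

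**Figure D1:**
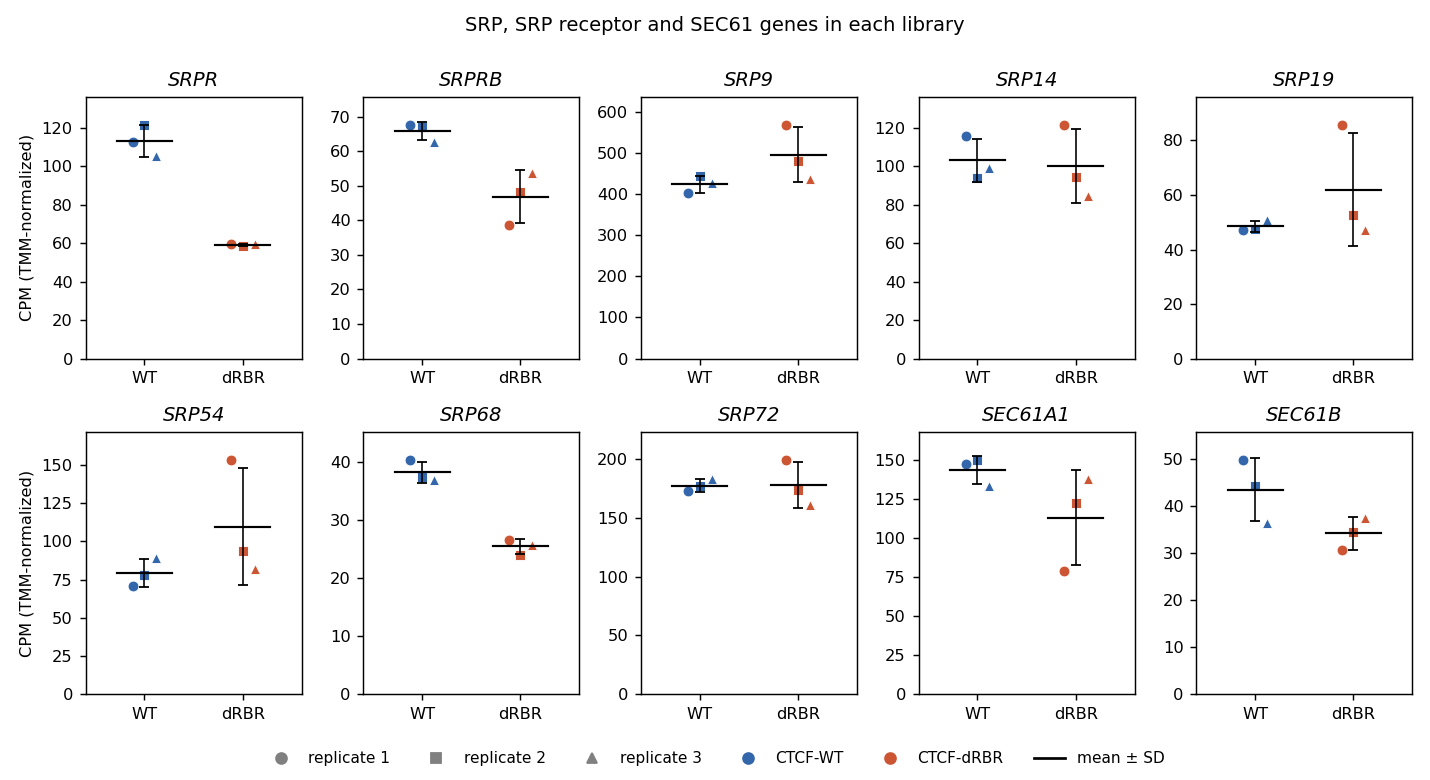
CPM of each gene (y axis, from 0, TMM-normalized) in the 3 CTCF-WT and 3 CTCF-dRBR libraries. Points are libraries, with the shape giving the replicate number, and lines are the mean ± SD. The 3 CTCF-dRBR values of SRPR lie between 58.5 and 59.5 CPM, below all CTCF-WT values, and CTCF-dRBR replicate 1 is the highest or lowest of the 6 libraries for 8 of the 10 genes.

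SRPR encodes the alpha subunit of the SRP receptor, the GTPase that meets the SRP at the ER membrane, and is now named SRPRA. It lies at chr11:126132833-126139039 on the minus strand (GRCh37). In the order of the replicate numbers, as for every gene here, its CPM were 112.6, 121.6 and 105.2 for CTCF-WT and 59.3, 58.5 and 59.5 for CTCF-dRBR. The groups did not overlap, and the gap between them was 45.7 CPM. The mean of CTCF-WT was 113 ± 8.21 CPM and that of CTCF-dRBR 59.1 ± 0.55 CPM (SD, n = 3), a ratio of 0.523. The log2 fold change was -0.93 ± 0.095 (SE), and 6.7% of all genes tested lay at or below it. Leaving out any of the 6 libraries gave between -0.98 and -0.88. Since SRPR was chosen for being lower in these same libraries, its rank and this range are descriptions and no support.

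SRPRB, at chr3:133502867-133544616 on the plus strand, encodes the beta subunit, a membrane-anchored GTPase that holds the alpha subunit at the ER. Its level was 67.7, 67.0 and 62.8 CPM in CTCF-WT and 38.6, 48.2 and 53.7 CPM in CTCF-dRBR. The groups did not overlap, with a gap of 9.05 CPM. The CTCF-dRBR libraries differed more among themselves (46.9 ± 7.62 CPM, SD, n = 3) than the CTCF-WT libraries did (65.8 ± 2.66 CPM). The log2 fold change of SRPRB was -0.48 ± 0.14 (SE), with an adjusted p of 0.142 in limma-voom. Without CTCF-dRBR replicate 1, its lowest library, the log2 fold change was -0.37, with an adjusted p of 0.0626 in limma-voom.

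SRP68 was the third gene whose groups did not overlap. It lies at chr17:74034856-74068598 on the minus strand, and its protein pairs with SRP72 on the S domain of the particle, the part that binds signal sequences and the receptor. Its level was 40.4, 37.4 and 36.95 CPM in CTCF-WT and 26.6, 24 and 25.8 CPM in CTCF-dRBR, and the gap between the groups was 10.4 CPM. The means were 38.2 ± 1.84 CPM and 25.4 ± 1.32 CPM (SD, n = 3), a ratio of 0.665. The log2 fold change was -0.59 ± 0.11 (SE), with an adjusted p of 0.0959 in limma-voom. This was the smallest adjusted p of any gene in that fit, and other genes shared it. CTCF-dRBR replicate 1 was not an extreme library for this gene.

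The calls for the genes with separate groups turned with the test. By DESeq2, which called 6.14% of all genes lower in CTCF-dRBR, SRP68 had an adjusted p of 1.11e-05 and SRPRB one of 0.0275. After removal of the trend with GC content (5.71% of all genes called lower by limma-trend), SRP68 had an adjusted p of 0.0176 and SRPRB one of 0.0565. Without CTCF-dRBR replicate 1 (2.37% called lower by limma-voom), SRP68 had an adjusted p of 0.0398. Leaving out any other library left SRP68 past no threshold, with adjusted p from 0.0826 to 0.482 in limma-voom.

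**Figure D2:**
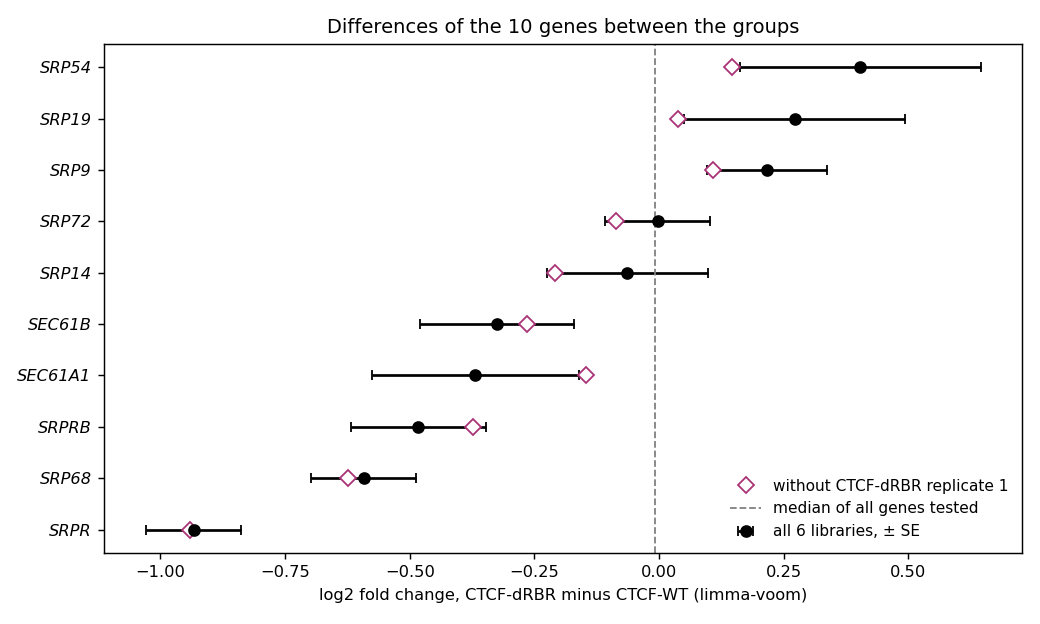
Log2 fold change of each gene (x axis, CTCF-dRBR minus CTCF-WT, limma-voom). Filled points with bars are all 6 libraries ± SE, open diamonds are the fit without CTCF-dRBR replicate 1, and the dashed line is the median of all genes tested. Without that library SRPR, which chose the group, is at -0.94 and SRP68 at -0.62. SRP54 moves from 0.40 to 0.15 and SEC61A1 from -0.37 to -0.15.

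SRP72, at chr4:57333783-57369847 on the plus strand, encodes the other member of that pair. Its level was 172.6, 177.0 and 183.1 CPM in CTCF-WT and 199.3, 174.2 and 161.2 CPM in CTCF-dRBR. The groups overlapped and the means were 178 ± 5.24 and 178 ± 19.3 CPM (SD, n = 3). The log2 fold change of SRP72 was -0.0026 ± 0.11 (SE), with an adjusted p of 0.987 in limma-voom. After removal of the trend with GC content it was -0.37, with an adjusted p of 0.0483 in limma-trend.

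SRP54 and SRP19 complete the S domain. SRP54, at chr14:35451163-35498892 on the plus strand, encodes the GTPase that grips the signal sequence and pairs with the receptor, and its level was 70.8, 77.8 and 89.0 CPM in CTCF-WT and 153.4, 93.7 and 81.8 CPM in CTCF-dRBR. SRP19, at chr5:112196885-112234068 on the plus strand, encodes the protein that helps the particle's RNA fold so that SRP54 can join. Its level was 47.2, 47.5 and 50.8 CPM in CTCF-WT and 85.8, 52.7 and 47.3 CPM in CTCF-dRBR. Both genes were highest in CTCF-dRBR replicate 1, and the other CTCF-dRBR libraries lay within 5 CPM of the CTCF-WT range or inside it. The log2 fold change was 0.40 ± 0.24 (SE) for SRP54 and 0.27 ± 0.22 for SRP19, with adjusted p of 0.288 and 0.403 in limma-voom. Without CTCF-dRBR replicate 1 these were 0.15 and 0.038.

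SRP9 and SRP14 encode the heterodimer of the Alu domain, the end of the particle that slows elongation. SRP9, at chr1:225965515-225978170 on the plus strand, had 402.7, 443.5 and 425.8 CPM in CTCF-WT and 568.5, 481.3 and 436.5 CPM in CTCF-dRBR. Only the value of CTCF-dRBR replicate 3 lay within the CTCF-WT range, and the log2 fold change was 0.22 ± 0.12 (SE), with an adjusted p of 0.262 in limma-voom. SRP14, at chr15:40327891-40331382 on the minus strand, had 115.9, 94.2 and 99.4 CPM in CTCF-WT and 121.7, 94.4 and 84.3 CPM in CTCF-dRBR. Its groups overlapped, and the log2 fold change was -0.06 ± 0.16 (SE), with an adjusted p of 0.788 in limma-voom. SRP9P1, a pseudogene of SRP9, held between 3.82% and 5.52% as many counts as SRP9 itself. The counts of SRP9 were fractional in all 6 libraries and those of SRP14 and SRP19 in 4, as RSEM gives for reads that match several loci, so these levels carry that uncertainty.

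SEC61A1 encodes the pore of the translocon and SEC61B its small tail-anchored beta subunit. SEC61A1, at chr3:127770484-127790548 on the plus strand, had 147.3, 149.9 and 133.4 CPM in CTCF-WT and 78.8, 122.5 and 137.6 CPM in CTCF-dRBR. CTCF-dRBR replicate 1 was lowest, and CTCF-dRBR replicate 3 lay inside the CTCF-WT range. SEC61B, at chr9:101984346-101992897 on the plus strand, had 49.7, 44.2 and 36.4 CPM in CTCF-WT and 30.6, 34.5 and 37.4 CPM in CTCF-dRBR, so its groups overlapped as well. The log2 fold change was -0.37 ± 0.21 (SE) for SEC61A1 and -0.33 ± 0.15 for SEC61B, with adjusted p of 0.268 and 0.222 in limma-voom.

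The proteins work in fixed partnerships, so the balance of partner genes was taken within each library, where library scaling cancels but a difference in GC content between partners does not. Ratios in this paragraph are of counts and not per length. The ratio of SRPR to SRPRB was 1.66, 1.81 and 1.68 in CTCF-WT and 1.53, 1.21 and 1.11 in CTCF-dRBR. It was lower in every CTCF-dRBR library, by 0.43 on average on the log2 scale, which is given without a test since SRPR chose the group. With the GC trend removed, an alternative chosen after seeing the data, the groups overlapped and the difference was -0.15. The ratio of SRP68 to SRP72 was 0.234, 0.211 and 0.202 in CTCF-WT and 0.133, 0.138 and 0.160 in CTCF-dRBR. These groups did not overlap either, and the log2 ratio was -2.22 ± 0.11 in CTCF-WT and -2.80 ± 0.14 in CTCF-dRBR (SD, n = 3). The difference was -0.59, with an exact two-sided permutation p of 0.1, the smallest that 3 libraries against 3 allow, and 0.267 adjusted over the 4 pairs tested. SRP68 has 47.7% exon GC and SRP72 36.2%. With the GC trend removed the difference was -0.22, the log2 ratio of CTCF-dRBR replicate 1 (-2.35) lay above all 3 of CTCF-WT, and the exact permutation p was 0.4.

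The other partner balances overlapped between the groups with and without the GC trend. SRP9 to SRP14 differed by 0.27 on the log2 scale (exact permutation p = 0.2, adjusted 0.267), with the lowest ratio in CTCF-WT replicate 1. SRP19 to SRP54 differed by -0.12 (exact permutation p = 0.2, adjusted 0.267), and the 3 CTCF-dRBR log2 ratios lay between -0.84 and -0.79. The high values of SRP19 and SRP54 in CTCF-dRBR replicate 1 thus left their ratio near that of the other CTCF-dRBR libraries. SEC61A1 to SEC61B differed by -0.04 (exact permutation p = 0.9, adjusted 0.9).

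**Figure D3:**
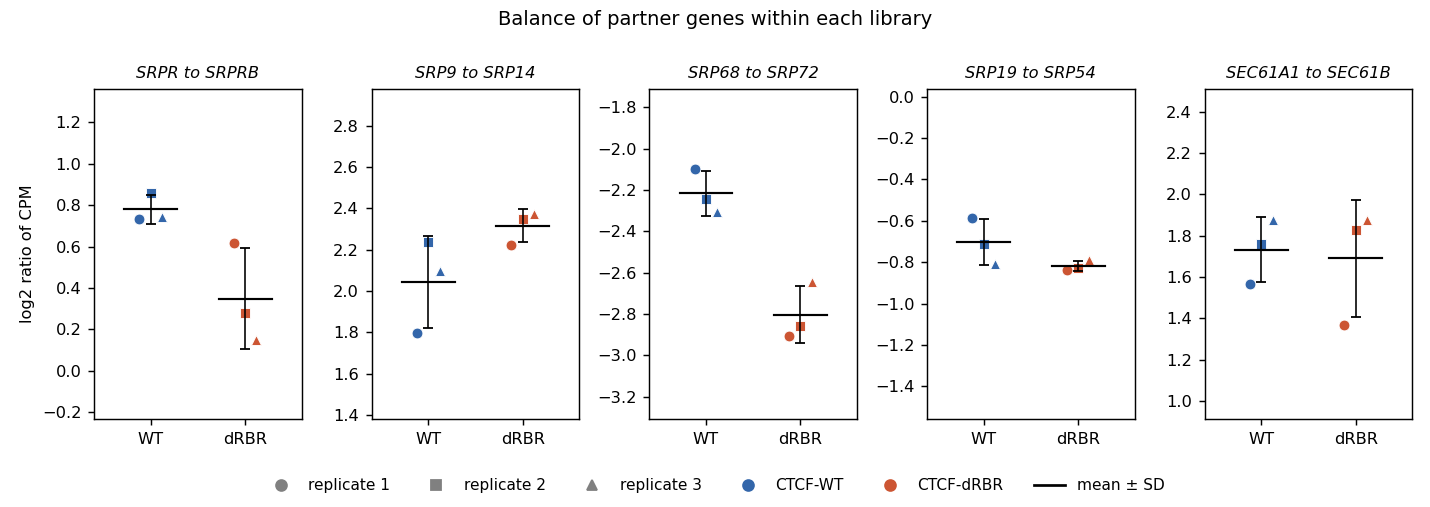
Log2 ratio of CPM of partner genes (y axis, each panel spanning the same range) in each library, with points for libraries and lines for the mean ± SD. The GC trend is not removed here. The ratios of SRPR to SRPRB and of SRP68 to SRP72 are lower in all CTCF-dRBR libraries than in all CTCF-WT libraries, which no longer holds once it is removed, and the other ratios overlap.

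Promoter sequences were taken from RefSeq (GRCh38.p14), where 9 of the 10 genes were matched by symbol in the table used here. SRPR was the gene without a match, so its promoter was not searched. The windows ran from 250 bases before to 50 bases after the first listed start. SRP14, SRP68 and SEC61A1 had 2 listed starts, of which only the first was searched. Both strands were searched for set letters. The longer ones were CCANNAGNNGGC for the CTCF core and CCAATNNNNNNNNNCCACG for the ER stress element. The NRF1 site was GCGC and TGCGC with 1 base between them. The others were the CRE core TGACG and the CCAAT box, which is part of the ER stress element. The ETS site was CCGGAAG. The YY1 site was AAGATGGCG. The GC box was GGGCGG. The 250 bases before the start are shown for SRPRB and SRP68, whose groups did not overlap, and for SRP54 and SRP19, which had the largest positive log2 fold changes of the members. Capitals mark every match.
SRPRB, chr3:133805565-133805814, plus strand: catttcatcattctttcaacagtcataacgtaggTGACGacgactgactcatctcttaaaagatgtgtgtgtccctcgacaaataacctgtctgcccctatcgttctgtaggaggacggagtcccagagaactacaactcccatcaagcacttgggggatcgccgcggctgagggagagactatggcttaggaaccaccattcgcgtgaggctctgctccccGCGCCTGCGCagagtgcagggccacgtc
SRP68, chr17:76072518-76072767, minus strand: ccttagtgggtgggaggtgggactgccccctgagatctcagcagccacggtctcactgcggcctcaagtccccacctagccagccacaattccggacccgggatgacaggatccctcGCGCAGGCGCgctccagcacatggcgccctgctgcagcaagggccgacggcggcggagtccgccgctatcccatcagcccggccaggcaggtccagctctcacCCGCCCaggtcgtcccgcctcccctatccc
SRP54, chr14:34982742-34982991, plus strand: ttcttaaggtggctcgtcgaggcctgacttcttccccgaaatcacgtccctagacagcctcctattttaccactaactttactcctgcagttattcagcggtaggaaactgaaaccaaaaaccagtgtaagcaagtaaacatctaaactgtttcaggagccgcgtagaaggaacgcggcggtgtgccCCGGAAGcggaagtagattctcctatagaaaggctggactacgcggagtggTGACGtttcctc
SRP19, chr5:112861037-112861286, plus strand: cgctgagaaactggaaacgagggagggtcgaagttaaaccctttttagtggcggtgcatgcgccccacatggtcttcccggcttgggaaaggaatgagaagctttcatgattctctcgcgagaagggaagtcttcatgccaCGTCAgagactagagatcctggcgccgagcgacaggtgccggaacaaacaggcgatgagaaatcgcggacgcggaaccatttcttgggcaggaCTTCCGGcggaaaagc

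The windows of SRPRB and SRP68 each held an NRF1 site, at 28 bases and 133 bases before the start. These were the only 2 of the 9 windows with one, against 5.78% of the 35116 windows of the same length in the table. The NRF1 letters include CpG (C followed by G). SRPRB and SRP68 had 21 and 22 CpG, and the 9 windows 4 to 26, against a median of 14 over all windows. That 5.78% is therefore not a share over windows of like CpG content, and a link of the site with the lower values was not tested. The windows of SRP54, SRP19 and SRP14 each held a CRE core and an ETS site. SRP9 and SRP72, which like these 3 were highest in CTCF-dRBR replicate 1, held neither. Among the 9 windows, 4 held the CRE core (24.6% of all windows), 4 a CCAAT box (34.6%), 3 the ETS site (10.3%), 2 the YY1 site (1.75%) and 6 the GC box (45.0%). None held the CTCF core (2.41% of all windows) or the ER stress element (0.0769%). These matches describe letters in the windows and were not tested for binding.

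Levels between genes were compared per length, on the deposited TPM. By the mean over the 6 libraries the order was SRP9 at 253 TPM, SRP14 at 127, SRP19 at 70.6, SEC61B at 65.7, SRP72 at 58.3, SRP54 at 39.7, SEC61A1 at 28.7, SRPRB at 23.9, SRPR at 23.4 and SRP68 at 11.2 TPM. The steps from SRP9 to SRP14, from SRP14 to SRP19, from SRP72 to SRP54 and from SRPR to SRP68 held in all 6 libraries. The other neighbours changed places between libraries. SRP19 was above SEC61B in 2 of 6, SEC61B above SRP72 in 4, SRP54 above SEC61A1 in 4 and SEC61A1 above SRPRB in 5. SRPRB was above SRPR in all 3 CTCF-dRBR libraries and in 0 of the 3 CTCF-WT libraries.

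Deposited TPM were not used to compare the groups, because the share of TPM that protein-coding genes took varied from 30.3% to 63.2% between libraries. On that scale all 10 genes overlapped between the groups, SRPR included (19.7, 25.9 and 34.1 TPM in CTCF-WT and 22.6, 21.1 and 16.8 TPM in CTCF-dRBR), and by limma-trend on log2(TPM + 1) SRPR alone had a negative log2 fold change, -0.36. After rescaling to the same total over protein-coding genes, SRPR had 65.03 to 72.4 TPM in CTCF-WT and 35.7 to 38.7 TPM in CTCF-dRBR. SRP68 had 27.3 to 28.2 and 20.9 to 21.6 TPM on this scale, and its groups did not overlap. SRPRB overlapped on it (49.5 to 61.0 and 43.9 to 51.8 TPM), and SRP9 was higher in every CTCF-dRBR library (436.5 to 501.3 and 530.8 to 616.3 TPM). SRP68 and SRP9 each had an exact permutation p of 0.1 on this scale, the smallest that 3 libraries against 3 allow.

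**Figure D4:**
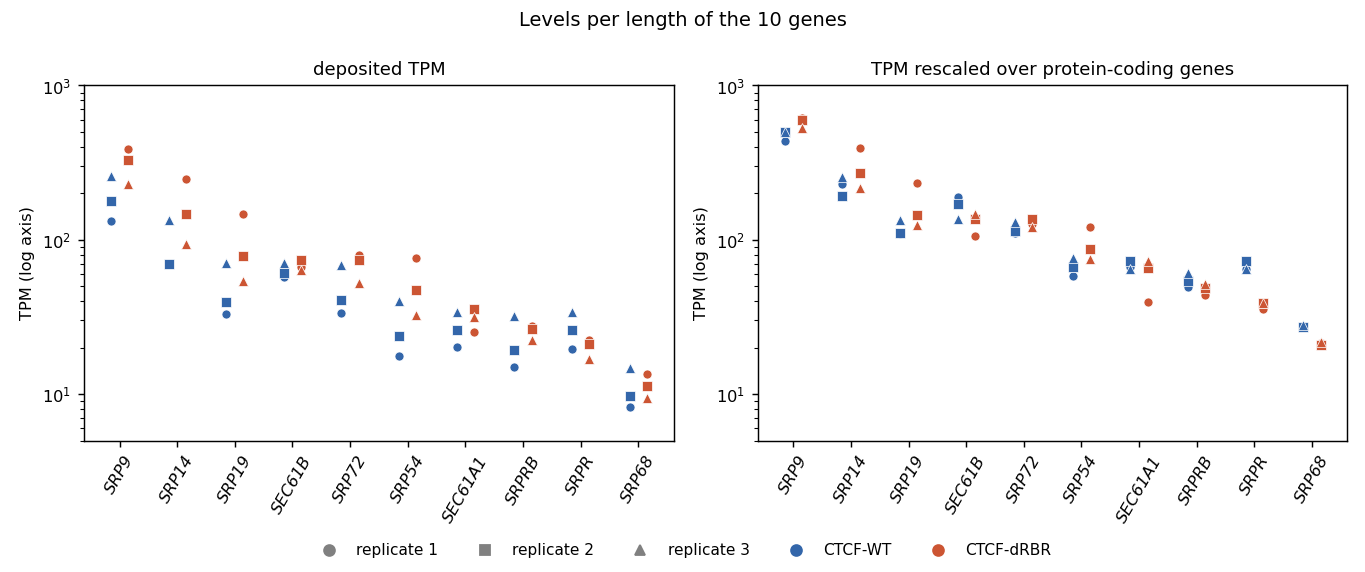
TPM of each gene in each library on log axes, as deposited (left) and rescaled to the same total over protein-coding genes (right), with colors for the groups and shapes for the replicate numbers. SRP9 is at the top and SRP68 at the bottom in both, and the groups of SRPR, SRP68 and SRP9 separate only in the right panel.

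GC content moved with the libraries and with the members. The rank correlation, across genes and not across replicates, of a library's deviation from the mean of the 6 libraries with exon GC content was 0.709, 0.674 and 0.339 in CTCF-WT replicates 1, 2 and 3 and -0.78, -0.417 and 0.504 in CTCF-dRBR. The exons of SRP72, SRP9 and SRP54 had 36.2%, 37.9% and 38.0% GC, and those of SRPR had 51.0%. Of the genes tested whose GC content was within 2.5 percentage points of SRPR, 2055 genes, the median log2 fold change was -0.17 and 3.6% lay below SRPR. For SRPRB the median of such genes was 0.08 and 5.4% lay below it, and for SRP68 the median was -0.01 and 5.8% lay below it. SRP54, at 0.40, lay near the median of 0.30 of genes with its GC content, and SRP19, at 0.27, near 0.20. Of such genes, 9.7% lay below SRP72, 14.9% below SEC61B and 22.4% below SEC61A1. For SRP9 and SRP14 the shares were 35.9% and 35.7%, and for SRP19 and SRP54 60.8% and 68.6%. The part of GC content in these differences was not tested beyond the removal of the trend, after which SRPR was at -0.77, SRPRB at -0.61 and SRP68 at -0.59.

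**Figure D5:**
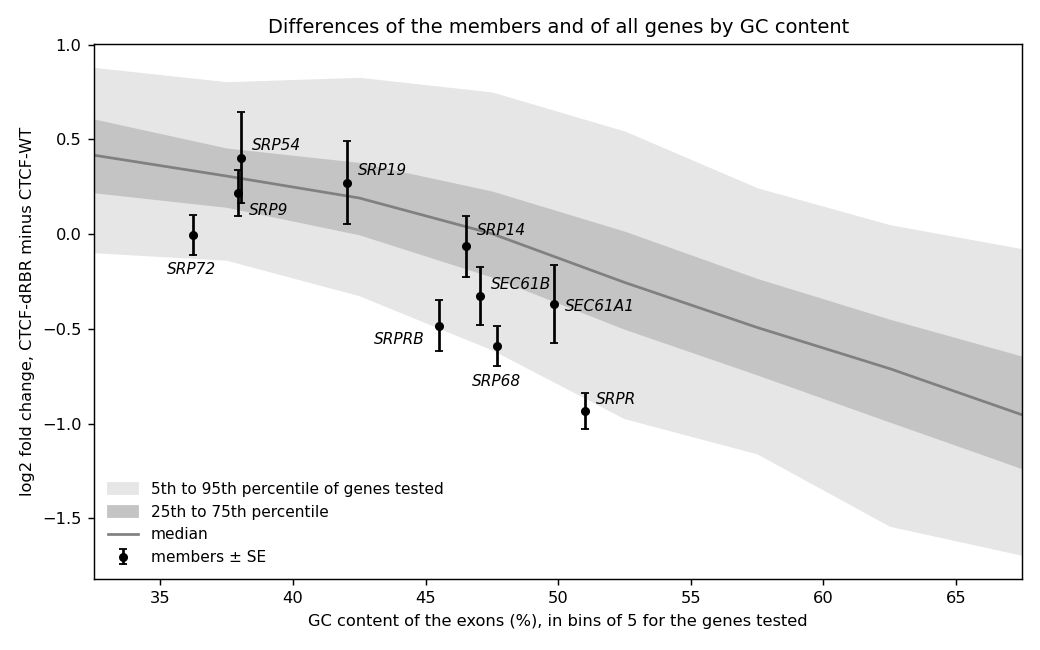
Log2 fold change (y axis, CTCF-dRBR minus CTCF-WT) against exon GC content (x axis, %). Points are the 10 genes ± SE, and the grey line and bands are the median, the 25th to 75th and the 5th to 95th percentile of the genes tested in bins of 5 percentage points. The median of all genes falls from 0.31 at 35% to 40% GC to -0.25 at 50% to 55%. SRPR, SRPRB and SRP68 lie near the lower edge of the outer band.

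Some members share exons with other genes. The deposited tables are marked as stranded, but the sources used here give no strand setting for RSEM, so reads of overlapping genes may not be told apart. On the opposite strand of SRPR, FOXRED1, a mitochondrial assembly factor, had 33.7, 31.3 and 28.2 CPM in CTCF-WT and 9.17, 19.4 and 23.1 CPM in CTCF-dRBR, lower in every CTCF-dRBR library (log2 fold change -0.90 ± 0.31, adjusted p = 0.165 in limma-voom). FAM118B, also on the opposite strand, had 14.2 to 15.6 CPM in CTCF-WT and 16.1 to 18.5 CPM in CTCF-dRBR, all of them above. RUVBL1, an ATPase gene opposite SEC61A1, had 106.8 to 113.7 CPM in CTCF-WT and 72.3 to 87.9 CPM in CTCF-dRBR (log2 fold change -0.48 ± 0.10, adjusted p = 0.112 in limma-voom). REEP5, opposite SRP19, overlapped between the groups (0.01 ± 0.12). TF, on the strand of SRPRB, held at most 2.34% as many counts as SRPRB, and RP11-85K15.2, opposite SRP54, at most 1.38% as many as SRP54. MGLL, which overlaps SEC61A1 outside its exons, held at most 1.40% as many, ZRSR1 at most 3.57% as many as SRP19, and RAB6B, CTC-554D6.1, XBP1P1 and ZACN were under the filter.

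The RNA of the particle itself was measured as RN7SL1 and RN7SL2, near-identical genes whose reads can be split between them, and RN7SL3. RN7SL1 had 35070, 28120 and 12260 CPM in CTCF-WT and 3399, 11050 and 18720 CPM in CTCF-dRBR. RN7SL2 had 26900, 20350 and 4388 CPM in CTCF-WT and 3866, 7222 and 11920 CPM in CTCF-dRBR. Both ranged widely within each group and overlapped between the groups, with log2 fold changes of -1.37 ± 0.69 and -0.95 ± 0.74 (SE) and adjusted p of 0.234 and 0.386 in limma-voom. RN7SL3 had 2.05 to 2.74 CPM in CTCF-WT and 0.888 to 1.78 CPM in CTCF-dRBR, with a log2 fold change of -0.97 ± 0.29 and an adjusted p of 0.148 in limma-voom.

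The other genes of protein targeting and translocation, the particle's RNA included, numbered 49, of which 47 were tested and 0 passed FDR in limma-voom. Every CTCF-dRBR library was above CTCF-WT in 10 of the 47 and below in 14, against shares over all genes tested of 20.0% and 17.5%, and their median log2 fold change was -0.12. Among 6 further translocon subunits and helpers, TRAM1, which assists chains into the channel, was highest in TPM and had the largest log2 fold change (0.47 ± 0.22), and SEC61A2, the second pore gene, had the smallest (-0.22 ± 0.13). In the TRAP complex, which binds the channel, SSR2 was at -0.11 ± 0.14, SSR3 at 0.30 ± 0.15 and SSR4 at -1.0 ± 0.54. SSR4 had 12.4 CPM in CTCF-dRBR replicate 1 and 49.9 to 86.0 CPM in the other libraries. Its exons have 61.2% GC, and the median log2 fold change of all genes tested at 60% to 65% GC was -0.71. The part of GC content in the difference of SSR4 was not tested. In signal peptidase, which removes the signal sequence, SPCS3 was at 0.26 ± 0.10 and SPCS1 at -0.31 ± 0.11.

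The oligosaccharyltransferase, which adds N-glycans to chains in the ER, had 11 of 12 genes tested, with every CTCF-dRBR library above in 3 and below in 4. As for the lists that follow, the shares over all genes tested are 20.0% above and 17.5% below. Its gene with the highest TPM, DAD1, was at -0.22 ± 0.098 (log2 fold change ± SE), STT3B, a catalytic subunit, at 0.30 ± 0.14 and TMEM258 at -0.66 ± 0.22. The GET pathway inserts tail-anchored proteins, such as SEC61B, without the SRP. Its 7 genes had a median of -0.52, with BAG6 at -0.65 ± 0.41, WRB at 0.24 ± 0.11 and GET4 at -0.81 ± 0.20. Of the 7, 3 were below in every CTCF-dRBR library and 2 above. BAG6 and GET4 have 57.4% and 61.6% exon GC and WRB 46.1%. Over all genes tested the median was -0.49 at 55% to 60% GC and -0.71 at 60% to 65%. It was 0.0024 at 45% to 50%. The part of GC content in this list was not tested. The ER membrane complex, another insertase, had 9 of 10 genes tested, 4 of them below in every CTCF-dRBR library and 0 above. Its median was -0.17, with EMC4 at -0.15 ± 0.11, EMC2 at 0.29 ± 0.26 and EMC6 at -0.89 ± 0.19. EMC6 has 58.9% exon GC, and the part of GC content was not tested here either. The nascent chain complex, which shields chains that should not reach the ER, was at 0.29 ± 0.11 for NACA and 0.21 ± 0.16 for BTF3.

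The unfolded protein response, which adjusts ER capacity to its load, was represented by 14 genes with a median of 0.04, of which 3 were above and 3 below in every CTCF-dRBR library, close to the 20.0% and 17.5% over all genes tested. HSPA5, the main ER chaperone of the Hsp70 family, had 67.4, 70.1 and 54.8 CPM in CTCF-WT and 36.5, 32.4 and 31.3 CPM in CTCF-dRBR. XBP1, a transcription factor of the response, had 268.4, 268.9 and 300.6 CPM in CTCF-WT and 400.8, 413.7 and 395.0 CPM in CTCF-dRBR. Neither overlapped between the groups, and their log2 fold changes were -0.95 ± 0.14 and 0.53 ± 0.088 (SE), each with an adjusted p of 0.0959 in limma-voom. SRP68 and other genes shared that value, the smallest adjusted p of the fit. HSPA5 has 44.15% exon GC and XBP1 46.04%. Over all genes tested the median log2 fold change was 0.19 at 40% to 45% GC and 0.0024 at 45% to 50%. HSP90B1, an ER chaperone of the Hsp90 family, was at 0.35 ± 0.16 and overlapped.

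Of 6361 other genes with a mean of at least 10 TPM, the 3 nearest to SRPR in their profile over the 6 libraries (the root mean square difference of log2 CPM, each gene centred on its mean) were PGD, SNRPC and EIF3C, at 0.093, 0.10 and 0.10. PGD encodes an enzyme of the pentose phosphate pathway, SNRPC a protein of the U1 particle of the spliceosome and EIF3C a subunit of a translation initiation factor that has a near-identical copy in the genome, so that its counts are uncertain. PGD had 153.7, 167.4 and 151.5 CPM in CTCF-WT and 97.8, 85.4 and 91.1 CPM in CTCF-dRBR. SNRPC had 85.8 to 100.6 CPM in CTCF-WT and 52.7 to 59.9 CPM in CTCF-dRBR, and EIF3C had 97.3 to 109.8 and 54.4 to 60.8 CPM. Among the members, SRP68 ranked 63 and SRPRB 279 by this measure, while SRP19 ranked 5128 and SRP54 5693. The profile has only 6 points that share the 2 groups, so these ranks are a description. In total RNA of a culture, fewer cells expressing a gene and less RNA per cell cannot be told apart.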

How the data were processed

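Total RNA-seq libraries of SEM cells, 3 CTCF-WT and 3 CTCF-dRBR, were analyzed. The authors removed ribosomal RNA, trimmed reads (Trim Galore 0.6.3), aligned them to GRCh37 (STAR 2.7.9a) and quantified Gencode genes (RSEM 1.3.1). The methods call the reads paired-end and the labels single-end. The deposited expected counts (RSEM estimates, not normalized) gave every CPM and test, and the deposited TPM (scaled by the authors over all genes, small RNAs included) gave levels between genes. Spike-in sequences had no counts.

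A gene had to reach 1 CPM in at least 1 library, which left 14044 of 57820. The counts were normalized by TMM (edgeR 4.0.16) and compared across all genes by limma-voom (limma 3.58.1, R 4.3.3) without covariates, as in the methods of the study, two-sided, with Benjamini-Hochberg adjustment. Partner balances were log2 ratios of CPM with a prior count of 1. Their exact permutation tests compared 3 libraries with 3. Alternatives were edgeR's quasi-likelihood test and DESeq2 (1.42.0), both on rounded counts, other normalizations, filters and weights, limma-trend, the replicate number as a block, a removed GC trend (loess) and leaving out each library. The scripts were tested on simulated counts with set changes, which held no GC trend by library and no library that stood apart. That run therefore does not bear on how these features affect the calls. Positions, overlaps and GC content came from a Gencode annotation of GRCh37, and promoters from RefSeq. Figures were drawn with matplotlib 3.10.9.

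The members and gene lists were chosen with earlier results of these data known. Named were all members, in each list the gene with the highest mean TPM and those with the largest and smallest log2 fold change, genes overlapping a member, and the 3 genes nearest to SRPR in profile. ChIP-seq and ATAC-seq were not analysed here.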

Additional observations from a re-analysis of the deposited data

How the results depend on the processing

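The number of genes past FDR was 0 by limma-voom and 1619 by DESeq2, 9583 with voomWithQualityWeights, 833 and 760 by limma-trend on TPM with a pseudocount of 1 and of 0.1, and 1312 after removal of the GC trend. It was 0 to 535 when single libraries were left out, the 535 without CTCF-dRBR replicate 1, and 3377 when that library and the GC trend were both removed, a setting chosen after seeing the data. Of the 10 members, 3 passed by DESeq2 (SRPR, SRPRB and SRP68), against 11.5% of all genes tested. With voomWithQualityWeights 7 of the 10 passed, near the 68.2% of all genes tested. After removal of the GC trend 3 passed (SRPR, SRP68 and SRP72), against 9.61%. When single libraries were left out 0 to 2 passed. The 2 were SRPR and SRP68 without CTCF-dRBR replicate 1, against 3.9% of all genes tested. With both removals 4 passed, against 25.3%. SRPR chose the group, so its place in these counts is no support. The settings not named here called 0 genes, and limma-trend on TPM called 0 members. The cause of these differences was not tested.

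By limma-trend on log2(TPM + 1) the log2 fold changes of SRPRB, SRP14, SRP68, SRP72, SEC61A1 and SEC61B turned to 0.27, 0.80, 0.077, 0.57, 0.21 and 0.12, and with a pseudocount of 0.1 to 0.28, 0.80, 0.086, 0.58, 0.22 and 0.12, where the medians of all genes were 0.40 and 0.54. Removal of the GC trend turned SRP9 to -0.12, and with CTCF-dRBR replicate 1 also left out SRP9, SRP19 and SRP54 were at -0.060, -0.074 and -0.021. By library size alone SRP14 was at 0.012 and SRP72 at 0.072. SRP72, at -0.0026 by limma-voom, also turned to 0.0057 by edgeR, 0.012 by DESeq2, 0.0027 with RLE size factors and 0.021 over protein-coding genes. When single libraries were left out, SRP14 ranged from -0.21 to 0.053, SRP72 from -0.087 to 0.068 and the balance of SEC61A1 to SEC61B from -0.14 to 0.12. On deposited TPM the balance of SRP9 to SRP14 was -0.054 and that of SEC61A1 to SEC61B 0.10, and with the GC trend removed, also chosen after seeing the data, the latter was 0.098 and the balance of SRP68 to SRP72 moved from -0.59 to -0.22. Rescaled over protein-coding genes, 7 of 9 neighbouring pairs kept their order of TPM.

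Deviations from the group means had correlations over genes of -0.341, 0.099 and -0.471 between same-numbered libraries. These values cannot decide whether the replicate numbers pair the libraries, since deviations within 3 libraries depend on each other. With the replicate block, 0 genes and 0 members passed and SRPR was at -0.93. With 3 libraries a group, no exact permutation p can be below 0.1.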
